A study of Rattus norvegicus with 12 samples.

Results

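RNA sequencing of fetal rat metatarsals was read as a 2 by 2 design, with dexamethasone absent or present and LiCl absent or present. All 12 libraries of the series entered, 3 for each of the 4 conditions, and the comparison asked for which genes the response to both drugs together differed from the sum of the responses to each. The bones came from Sprague Dawley rats at embryonic day 19 (E19) and were kept in culture for 72 h. The control medium carried the ethanol vehicle, the second condition dexamethasone at 1 µM, the third LiCl at 10 mM with the vehicle, and the fourth (dexamethasone + LiCl) both drugs at these concentrations. A library was made from a pool of about 20 (± 2) whole bones, so n = 3 pools per condition, and the labels call the pools biological replicates. The study describes 3 rats, each of which gave a pool to every condition, but no source used here states that the replicate number marks the rat, so the number was left out of the model and its effect is given where it changes a call. Of 30045 gene symbols, 12602 reached 60 counts in at least 2 libraries and were tested.

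Dexamethasone is a synthetic glucocorticoid. It binds the glucocorticoid receptor, which then acts in the nucleus as a transcription factor, and prolonged exposure is known to slow the growth of bones. Lithium inhibits glycogen synthase kinase 3 beta (GSK3β), the kinase that marks β-catenin for degradation, so that β-catenin accumulates and transcription of Wnt target genes rises. On a log2 scale the effects of both drugs are additive when the fold change caused by one drug is the same with and without the other. The interaction used here is the log2 fold change for LiCl in the presence of dexamethasone (dexamethasone + LiCl against dexamethasone) minus that in its absence (LiCl against control). It equals the log2 fold change for dexamethasone with LiCl minus that without LiCl. The average effect of a drug is the mean of its log2 fold changes with and without the other drug.

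The libraries held 9055581 to 21953446 counts, and those with dexamethasone were shallower (median 10057103 with dexamethasone and 10941818 with both drugs, against 20069564 in control and 18651019 with LiCl). Levels are given as CPM, the counts scaled to a common library total, after TMM normalization. The tissue label was borne out by its markers: all 16 measured genes of cartilage matrix were kept, and their summed level was 85140 to 126100 CPM over the 12 libraries. As whole bones were pooled, fewer cells of a type and less RNA per cell cannot be told apart.

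Departures from additivity passed the test for 1 gene. With edgeR's quasi-likelihood test and an adjusted p under 0.05, no gene had a positive interaction (0% of 12602) and 1 gene, Hif3a, had a negative interaction (0.00794%). At an unadjusted p under 0.05 there were 705 genes (5.59%) and 28 of them were under 0.001. With the replicate number added as a block, edgeR gave 1127 genes at an unadjusted p under 0.05. Of these, 3 had an adjusted p under 0.05 (Hif3a, Fabp4 and Cytl1). Without the block, limma-voom called 1 gene, and DESeq2's Wald test called 25 genes at an adjusted p under 0.05, 14 of them over 2-fold. In contrast, the average effect of dexamethasone was higher for 956 genes (7.59%) and lower for 1031 (8.18%), and that of LiCl was higher for 1184 (9.4%) and lower for 1463 (11.6%). With the further condition of a fold change over 2, 284 genes were called for dexamethasone (175 higher, 109 lower) and 172 for LiCl (98 higher, 74 lower).

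The interaction is a difference of differences and an average effect is a mean of differences, so the interaction has the larger standard error by definition. The median standard error of the interaction was 0.17 on the log2 scale, against 0.083 for each average effect. Therefore the 95% interval of the interaction was used to bound the departure. For 11349 genes (90.1%) the whole interval lay within 2-fold, and for 7715 (61.2%) within 1.5-fold. It lay wholly beyond 2-fold for 4 genes (Fabp4, Sox7, Car3 and Gpd1), none of which passed the edgeR test (adjusted p from 0.229 to 0.446). The interval of Hif3a (-1.82 to -0.99) was not among these 4. Depth limited this bound: among 1891 genes with a mean of up to 100 counts the interval lay within 2-fold for 54.3%, and among the 3193 genes in the highest class of mean counts for 98.7%. For a gene of few counts, a departure of 2-fold could thus have been missed.

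Summed over all genes on the log2 CPM scale, and after the residual variance was subtracted, the dexamethasone effect took 57.3% of the sum of squares between conditions, the LiCl effect 41.1% and the interaction 1.60%. The share of the interaction rested on single libraries. It rose to 3.35% without control replicate 1 and 3.72% without control replicate 3, and it fell to 0.184% without LiCl replicate 1, 0.985% without dexamethasone + LiCl replicate 1 and below the residual variance (-0.916%) without control replicate 2.

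Hif3a encodes hypoxia-inducible factor 3 alpha, a member of the family of oxygen-sensing transcription factors. Its level was 22.3, 14.3 and 24.0 CPM in the 3 control libraries and 36.8, 45.8 and 48.1 CPM with LiCl. With dexamethasone it was 191, 172.5 and 186.5 CPM, and with both drugs 147, 140.0 and 154 CPM. The 4 conditions did not overlap, and the order was control, LiCl, dexamethasone + LiCl, dexamethasone. Without LiCl, dexamethasone raised Hif3a by 3.16 on the log2 scale (SE 0.14, edgeR adjusted p = 1.2e-09), and with LiCl by 1.75 (SE 0.13, adjusted p = 5.9e-07). LiCl alone raised it by 1.09 (SE 0.14, adjusted p = 0.0002), but the LiCl effect in the presence of dexamethasone was -0.32 (SE 0.13) and did not pass (adjusted p = 0.16). The interaction was -1.41 (SE 0.19, 95% interval -1.82 to -0.99, edgeR adjusted p = 0.0334). Additive effects would have placed the condition with both drugs at 401 CPM, and the measured mean was 147 ± 6.82 CPM (SD, n = 3). On the linear scale the departure was negative as well (-59.9 CPM, SE 8.26).

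The size of the Hif3a interaction varied little with the libraries, between -1.24 and -1.54 when any one was left out. Its adjusted p stayed under 0.05 without control replicate 2 or 3, dexamethasone replicate 2 or LiCl replicate 1 (0.00346 to 0.0444). It was 0.0734 without control replicate 1, 0.108 without dexamethasone replicate 1, 0.125 without dexamethasone replicate 3, 0.167 without LiCl replicate 2 and 0.106 without LiCl replicate 3. It was 0.0941, 0.160 and 0.101 without dexamethasone + LiCl replicates 1, 2 and 3. With all libraries thinned to the smallest total the interaction was -1.43 (adjusted p = 0.0398).

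The promoter of Hif3a is shown because it is the gene that passed, and that of Axin2, a negative regulator of β-catenin and a classic Wnt target, is shown as a reference for LiCl. Both are RefSeq sequences of assembly GRCr8 and run from 250 bases before to 50 bases after the gene's start. Hif3a lies at chr1:86877789-86878088 on the minus strand and Axin2 at chr10:94398535-94398834 on the plus strand. Capitals mark the core motif of TCF/LEF, the partners of β-catenin on DNA (CTTTGA on either strand).
Hif3a: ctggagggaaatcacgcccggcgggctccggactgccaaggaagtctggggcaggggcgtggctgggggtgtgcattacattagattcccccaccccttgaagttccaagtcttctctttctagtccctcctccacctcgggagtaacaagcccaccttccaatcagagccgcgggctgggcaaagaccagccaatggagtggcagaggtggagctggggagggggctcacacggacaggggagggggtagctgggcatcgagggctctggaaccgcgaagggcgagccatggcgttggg
Axin2: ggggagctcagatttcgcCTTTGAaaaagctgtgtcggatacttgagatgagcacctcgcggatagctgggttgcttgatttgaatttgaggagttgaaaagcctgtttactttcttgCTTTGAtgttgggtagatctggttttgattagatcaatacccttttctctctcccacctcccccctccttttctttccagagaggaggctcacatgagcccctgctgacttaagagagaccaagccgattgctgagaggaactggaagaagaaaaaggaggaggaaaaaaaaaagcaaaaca
The Axin2 window holds 2 matches to CTTTGA and the Hif3a window 0. The half-site of the glucocorticoid receptor (AGAACA) and the core of the hypoxia response element (ACGTG) were searched on both strands too, with 0 matches to either in both windows. Among 27457 promoters of this length, 15.85% hold CTTTGA, 20.06% AGAACA and 19.73% ACGTG, and among the 8863 of genes tested here 11.46%, 11.9% and 25.67%. The levels of Axin2 were additive within their error. LiCl raised Axin2 from 21.3 to 34.3 CPM in the absence of dexamethasone (0.68 on the log2 scale, SE 0.15, edgeR adjusted p = 0.0088) and from 21.4 to 37.5 CPM in its presence (0.82, SE 0.16, adjusted p = 0.0043), with an interaction of 0.14 (95% interval -0.32 to 0.60).

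The 25 genes that DESeq2 called for the interaction were all among the 100 genes with the smallest edgeR p, where their adjusted p ranged from 0.0334 (Hif3a) to 0.446. By edgeR with the count minimum used here only Hif3a passed, and the values of the others are given as measurements. The calls depended on whether a filter was used: with no count filter (23569 genes) edgeR called 37 genes, among them Per1, Pla2r1, Ablim3, Sox7, Fabp4 and Col10a1 (adjusted p from 1.6e-07 for Fabp4 to 0.0453 for Per1). With the looser filter of edgeR's filterByExpr, which kept 15274 genes, Hif3a was still the only call. Of the 25, 14 had a positive average dexamethasone effect and a negative interaction, and 9 had a negative average dexamethasone effect and a positive interaction. In these 23 genes the dexamethasone effect was thus smaller in the presence of LiCl. The exceptions were Fabp4 and Col10a1, in which both were positive. Over all genes the signs were opposite for 7562 of 12602, which is the background to that count. These genes were named after their values had been seen.

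Among the genes higher with dexamethasone was Per1, a repressor of the circadian clock and a known target of the glucocorticoid receptor. Per1 was at 33.4, 35.6 and 35.8 CPM in control and 47.3, 56.2 and 60.5 CPM with LiCl, without overlap. It was at 166.5, 156 and 168 CPM with dexamethasone and 160.1, 168 and 179 CPM with both drugs, and these conditions overlapped. LiCl raised Per1 by 0.65 on the log2 scale in the absence of dexamethasone (SE 0.09, adjusted p = 0.00035) and the value in its presence was 0.05 (SE 0.09, adjusted p = 0.8), and the interaction was -0.60 (95% interval -0.87 to -0.33, edgeR adjusted p = 0.273, DESeq2 adjusted p = 0.0126). Pla2r1, the receptor of secretory phospholipase A2, was at 5.09, 5.38 and 7.96 CPM in control, 10.1, 7.50 and 7.22 CPM with LiCl, 33.3, 34.9 and 34.2 CPM with dexamethasone and 21.1, 19.2 and 21.0 CPM with both drugs. The condition with both drugs lay below dexamethasone alone without overlap, and LiCl overlapped with control. Its interaction was -1.14 (95% interval -1.62 to -0.67, edgeR adjusted p = 0.229, DESeq2 adjusted p = 0.00428).

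The 14 genes did not all depart in the same way. In Per1, Spock2 (a proteoglycan of the extracellular matrix), Tgfa (a ligand of the epidermal growth factor receptor) and Ctcfl (a paralogue of the insulator protein CTCF), LiCl alone was above control, and both drugs together were close to dexamethasone alone. The means of Spock2 were 13.1 CPM in control, 20.4 with LiCl, 53.3 with dexamethasone and 49.4 with both drugs, and those of Tgfa 5.18, 10.5, 39.8 and 38.3 CPM in the same order. In Pla2r1, Scara5 (a scavenger receptor that takes up ferritin), Coro6 (an actin-binding coronin) and Il1r1 (the receptor of interleukin 1), both drugs together were below dexamethasone alone. Il1r1 averaged 26.1 CPM in control, 22.9 with LiCl, 101 with dexamethasone and 60.2 with both drugs. LiCl lowered Il1r1 by 0.75 in the presence of dexamethasone (edgeR adjusted p = 5.8e-05), while its value in the absence of dexamethasone was -0.19 (adjusted p = 0.19). The difference between these (-0.56) had an edgeR adjusted p of 0.335. Itga8, an integrin subunit, was raised by each drug alone (from 15.6 to 43.4 CPM by dexamethasone and to 49.4 CPM by LiCl) and stood at 69.5 CPM with both, where additive effects would give 136 CPM. LOC100909954, a gene without a name, had 6, 0 and 3 raw counts in control, 85, 84 and 78 with dexamethasone, 44, 31 and 36 with LiCl and 168, 197 and 395 with both drugs. Its interaction was -2.29 on the log2 scale (95% interval -3.63 to -0.95) and 9.57 CPM on the linear scale, so that the direction turned with the scale.

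Among the genes lower with dexamethasone, Cxcr4 (the receptor of the chemokine Cxcl12) was at 24.1, 29.3 and 24.3 CPM in control and 23.7, 24.7 and 25.1 CPM with LiCl. It fell to 6.31, 6.38 and 5.49 CPM with dexamethasone and was at 11.6, 11.4 and 10.3 CPM with both drugs. Thus LiCl and control overlapped, and the condition with both drugs lay above dexamethasone alone in each library. LiCl raised Cxcr4 by 0.86 in the presence of dexamethasone (SE 0.13, edgeR adjusted p = 0.00072), and the interaction was 0.93 (95% interval 0.58 to 1.28, adjusted p = 0.178). Ablim3, an actin-binding LIM protein, was also higher with both drugs than with dexamethasone alone: it averaged 10.5 CPM in control, 12.5 with LiCl, 3.43 with dexamethasone and 8.57 with both drugs, with an interaction of 1.07 (95% interval 0.61 to 1.53, adjusted p = 0.233). Sox7, a transcription factor of endothelial cells, rested on few counts with dexamethasone. Its raw counts were 105, 63 and 99 in control, 69, 108 and 134 with LiCl, 3, 9 and 1 with dexamethasone and 24, 22 and 33 with both drugs. The interaction of Sox7 was 2.17 with a 95% interval of 1.09 to 3.24 (edgeR adjusted p = 0.31).

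Car3 (carbonic anhydrase 3), Ckb (brain-type creatine kinase) and Gpd1 (glycerol-3-phosphate dehydrogenase) were lower with either drug, and with both drugs each mean lay above that of the stronger single treatment. Car3 was at 14.3, 14.0 and 6.90 CPM in control, 0.828, 2.43 and 3.47 CPM with dexamethasone, 4.36, 2.62 and 2.33 CPM with LiCl and 3.06, 3.29 and 2.63 CPM with both drugs. The 3 treated conditions overlapped one another and lay below control. Additive effects would have placed Car3 at 0.576 CPM with both drugs, and its interaction was 2.34 (95% interval 1.17 to 3.51, edgeR adjusted p = 0.335). For Gpd1 the summed raw counts of the 3 libraries were 409 in control, 47 with dexamethasone, 25 with LiCl and 22 with both drugs. Gpd1 was at 0.643, 0.262 and 0.533 CPM with LiCl and 0.984, 0.365 and 0.526 CPM with both drugs. These overlapped, so the order of the 2 means was not resolved. Ctsz, the lysosomal protease cathepsin Z, fell with dexamethasone and rose with LiCl. It was at 51.8, 52.6 and 51.3 CPM in control, 39.1, 25.8 and 32.2 CPM with dexamethasone, 77.8, 68.2 and 77.0 CPM with LiCl and 81.0, 72.6 and 73.8 CPM with both drugs, which overlapped with LiCl alone. In the presence of LiCl the dexamethasone effect on Ctsz was 0.03 (adjusted p = 0.96), and without it -0.69 (adjusted p = 0.00094), with an interaction of 0.72 (95% interval 0.37 to 1.06, edgeR adjusted p = 0.335). Htra1, a secreted serine protease, averaged 153 CPM in control, 116 with LiCl, 70.0 with dexamethasone and 80.9 with both drugs.

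Fabp4 and Col10a1 fell with LiCl in the absence of dexamethasone, and their LiCl effect in its presence did not pass. Fabp4, the fatty acid carrier of adipocytes, was at 22.6, 21.9 and 12.8 CPM in control and 2.86, 5.61 and 3.73 CPM with LiCl, a fall of 2.20 on the log2 scale (SE 0.29, edgeR adjusted p = 0.00016). In the presence of dexamethasone the LiCl effect was -0.31 (SE 0.24, adjusted p = 0.5), from 30.2, 41.5 and 24.1 CPM with dexamethasone to 23.2, 33.3 and 21.7 CPM with both drugs. LiCl lay below every other condition, and both drugs together overlapped with control and with dexamethasone. At each replicate number, though, Fabp4 was lower with both drugs than with dexamethasone alone. The interaction of Fabp4 was 1.89 (95% interval 1.09 to 2.69, edgeR adjusted p = 0.229, DESeq2 adjusted p = 0.00119). With the replicate block, Fabp4 was called (1.93, edgeR adjusted p = 0.00475). Col10a1, the collagen X of hypertrophic chondrocytes, was at 2406, 2875 and 2613 CPM in control, 1293, 1412 and 1180.0 CPM with LiCl, 3634, 2163 and 2727 CPM with dexamethasone and 2795, 2335 and 2529 CPM with both drugs. Thus LiCl lowered Col10a1 by 1.02 (SE 0.15, adjusted p = 0.00054) in the absence of dexamethasone, and the value in its presence was -0.15 (SE 0.15, adjusted p = 0.6), with an interaction of 0.87 (95% interval 0.42 to 1.32, edgeR adjusted p = 0.415, DESeq2 adjusted p = 0.0232).

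**Figure D1:**
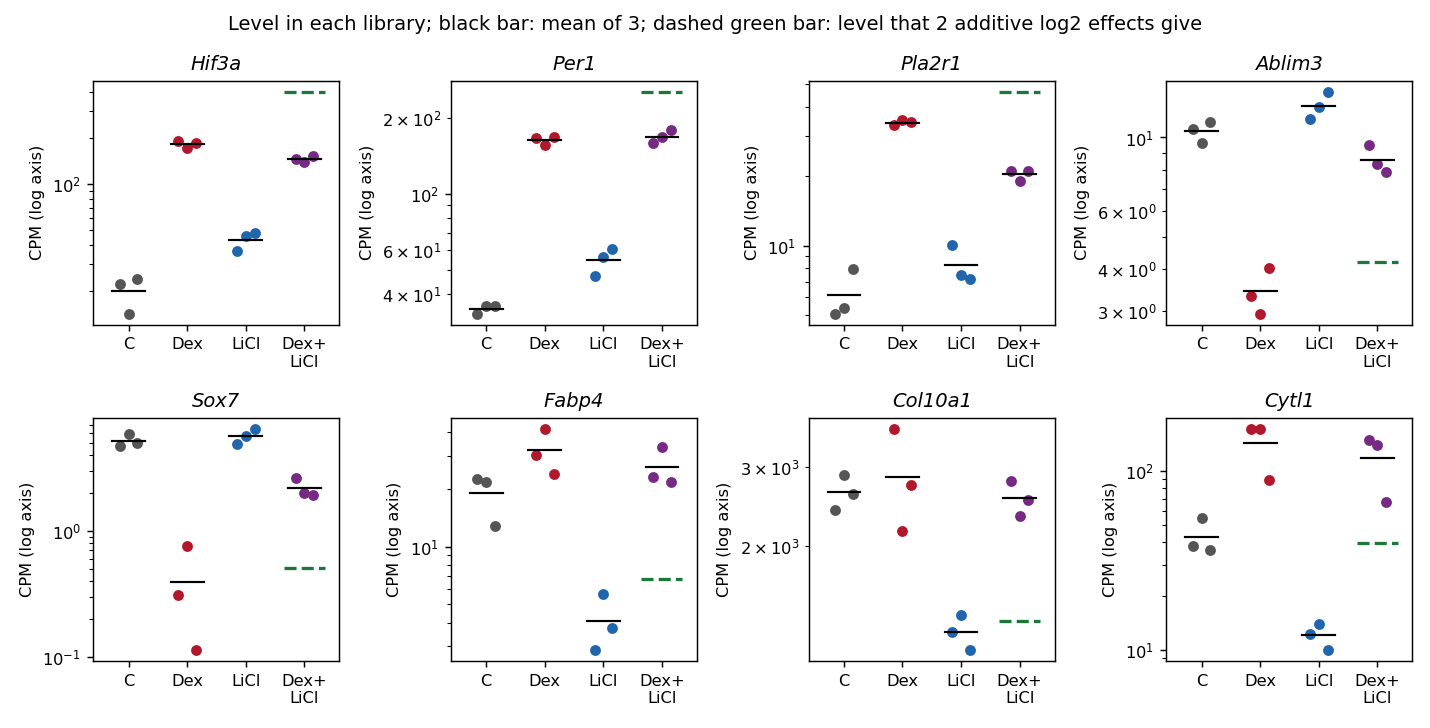
Level of 8 genes in each library (CPM, log axis) by condition, with the mean of 3 libraries as a black bar and, as a dashed green bar, the level with both drugs that additive log2 effects would give. The condition with both drugs lies below the dashed bar for Hif3a (147 against 401 CPM), Per1 and Pla2r1 and above it for Ablim3, Sox7, Fabp4, Col10a1 and Cytl1, and of these genes only Hif3a passed the edgeR test with the count minimum used.

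Over all genes called for a drug, the dexamethasone effect tended to be smaller in the presence of LiCl. Of the 284 genes called for the average dexamethasone effect, 203 (71.5%) had a smaller effect with LiCl than without it, against 7562 of all 12602 genes. The median size of the effect was 1.58 on the log2 scale without LiCl and 1.33 with LiCl. This held for 122 of 175 higher genes (medians 1.70 and 1.46) and for 81 of 109 lower genes (medians 1.46 and 1.17). The share lay between 67.0% and 75.1% under the other settings and without any one library. Of the 172 genes called for LiCl, 96 (55.8%) had a smaller effect with dexamethasone, against 51.8% of all genes, with medians of 1.36 and 1.26. This share turned to 44.3% without dexamethasone replicate 2 and to 45.6% without dexamethasone + LiCl replicate 3. These counts were made after the data had been seen, and no test was run on them.

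The libraries offer the effect of each drug in separate sets, as LiCl against control and dexamethasone + LiCl against dexamethasone share no library. At an adjusted p under 0.05 and over 2-fold, LiCl changed 199 genes against control (1.58% of 12602) and 172 genes in the presence of dexamethasone (1.36%). Of these, 96 were called in both comparisons in the same direction (57 higher, 39 lower) and 0 in opposite directions, which is 48.2% of the first list and 55.8% of the second. For the 199 genes the median size was 1.30 in the absence of dexamethasone and 1.07 in its presence, and for the 172 genes it was 1.24 in its presence and 1.07 in its absence. Each list was thus larger in the libraries that chose it. The genes shared included Sphkap, an anchoring protein of protein kinase A, which LiCl lowered by 3.54 (SE 0.28, adjusted p = 5.9e-07) and by 3.41 (SE 0.31, adjusted p = 3.1e-06). Another was Mmp3, a matrix metalloproteinase, which fell by 2.31 and by 2.26 on the log2 scale.

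In the same way, dexamethasone changed 358 genes against control (2.84%) and 253 in the presence of LiCl (2.01%). There were 196 genes called in both (137 higher, 59 lower), which is 54.7% of the first list and 77.5% of the second, and 0 in opposite directions. The median size for the 358 genes was 1.42 without LiCl and 1.10 with it. For the 253 genes chosen with LiCl it was 1.40 with LiCl and 1.55 without it, so that these genes were larger in the libraries that had not chosen them. Fkbp5, a co-chaperone of the glucocorticoid receptor and one of its best known targets, rose by 2.86 (SE 0.10, adjusted p = 3e-10) without LiCl and by 3.13 (SE 0.10, adjusted p = 9.4e-11) with LiCl, with an interaction of 0.27 (95% interval -0.03 to 0.57). Kdr, the vascular endothelial growth factor receptor of endothelial cells, fell by 2.55 and by 2.45. Of the genes called in only one comparison of a pair (103 and 76 for LiCl, 162 and 57 for dexamethasone), Hif3a alone was called for the interaction.

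**Figure D2:**
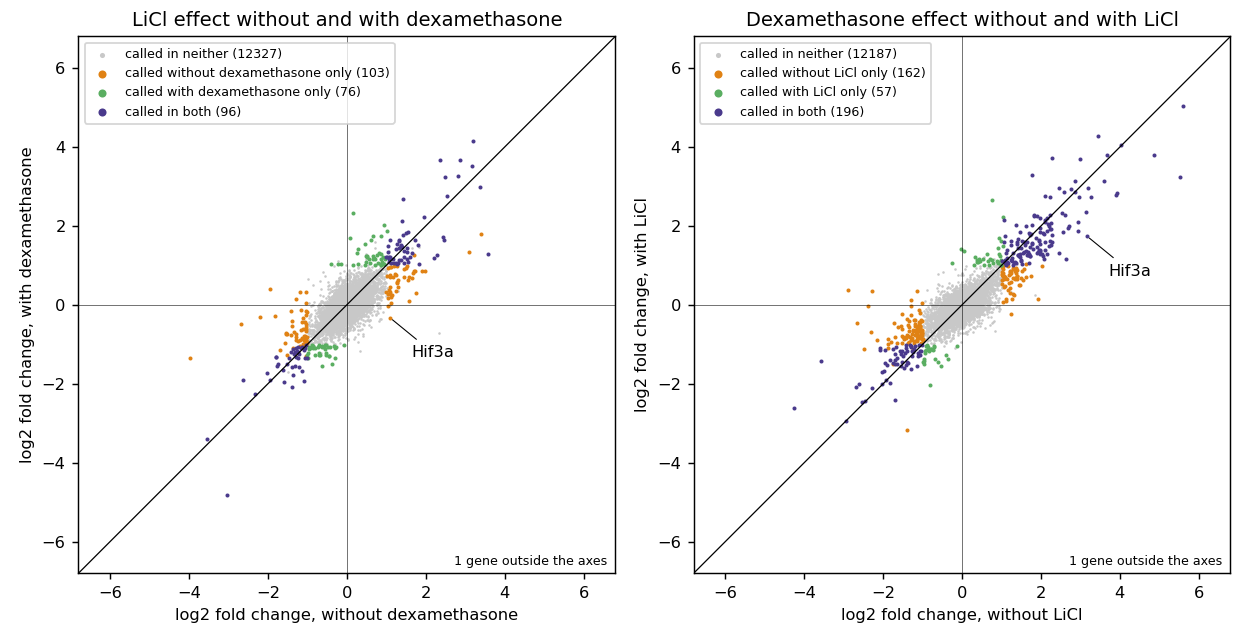
Log2 fold change of each of the 12602 genes for LiCl (left, without dexamethasone on the x axis and with it on the y axis) and for dexamethasone (right, without LiCl and with LiCl). Colors give the calls in each comparison and the diagonal line marks equal effects; 96 genes were called in both for LiCl and 196 for dexamethasone, all on the same side of 0 in both comparisons.

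Genes that responded to both drugs and whose departure was bounded were described next. There were 9 genes called for both average effects whose interaction interval lay within 2-fold. This bound leaves room for departures of less than 2-fold. At least the intervals of LOC689991, Fgf12, Srl, Fam163a, Car12, Car8 and Lcn2 were wider than the median of all genes (± 0.355). In 5 of the 9 genes the drugs acted in opposite directions, as seen for LOC689991, Lcn2, RGD1311892, RGD1562101 and Srl. In Car8, Car12, Fam163a and Fgf12 they acted in the same direction. LOC689991 was at 14.0, 6.59 and 11.8 CPM in control, 40.8, 31.1 and 38.2 CPM with dexamethasone, 3.72, 2.41 and 2.71 CPM with LiCl and 11.8, 8.48 and 9.40 CPM with both drugs. Dexamethasone lay above and LiCl below control, and both drugs together overlapped with control. Its average effects were 1.74 for dexamethasone (SE 0.17, adjusted p = 1.5e-06) and -1.92 for LiCl (SE 0.17, adjusted p = 1.1e-06), and its interaction was 0.04 (95% interval -0.66 to 0.74). The level with both drugs was 9.90 CPM on average, and additive effects would give 10.7 CPM.

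Lcn2 encodes lipocalin 2, a secreted protein that binds iron carriers of bacteria. Lcn2 was at 5.63, 5.11 and 4.43 CPM in control, 42.1, 39.6 and 36.6 CPM with dexamethasone, 3.14, 2.52 and 2.18 CPM with LiCl and 18.9, 17.0 and 15.7 CPM with both drugs, with no overlap between conditions. Its interaction was -0.23 (95% interval -0.67 to 0.20). Srl, a calcium-binding protein of the sarcoplasmic reticulum, moved the other way. It averaged 7.59 CPM in control, 3.30 with dexamethasone, 16.0 with LiCl and 7.30 with both drugs, and its interaction was 0.10 (95% interval -0.47 to 0.66).

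Among these 9 genes, where both drugs moved a gene in the same direction, the condition with both stood furthest from control. Car8, a carbonic anhydrase-related protein, was at 10.8, 13.9 and 16.9 CPM in control, 37.5, 36.5 and 37.8 CPM with dexamethasone, 26.4, 31.2 and 39.5 CPM with LiCl and 76.9, 75.6 and 81.6 CPM with both drugs. Single treatments overlapped each other, and both drugs together lay above them in every library. Additive effects would give 87.1 CPM, and the interaction was -0.17 (95% interval -0.61 to 0.28). Car12, a carbonic anhydrase of the cell membrane, averaged 37.6, 95.7, 111 and 202.5 CPM in the order control, dexamethasone, LiCl and both drugs, with an interaction of -0.48 whose interval (-0.99 to 0.03) barely stayed within 2-fold. Fgf12, an intracellular homologue of the fibroblast growth factors, was lowered by both, from 4.64 CPM in control to 2.29, 2.23 and 1.09 CPM, with an interaction of -0.02 (95% interval -0.83 to 0.80). Of the 9 genes, Fgf12 lay nearest to the 2-fold limit, with average effects of -1.01 for dexamethasone and -1.08 for LiCl. Single libraries took a few of these genes under 2-fold while the adjusted p stayed under 0.05. The dexamethasone effect of Car12 was 0.98 without dexamethasone replicate 2, and that of Fam163a 0.94 without dexamethasone replicate 3 and 0.96 without dexamethasone + LiCl replicate 3. The dexamethasone effect of Fgf12 lay between -0.98 and -0.92 without control replicate 2, dexamethasone replicate 1, LiCl replicate 1 or dexamethasone + LiCl replicate 2. Its LiCl effect lay at -0.997 and -0.98 without LiCl replicate 3 and dexamethasone + LiCl replicate 2, and Fgf12 missed the count minimum without control replicate 1 or 3.

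**Figure D3:**
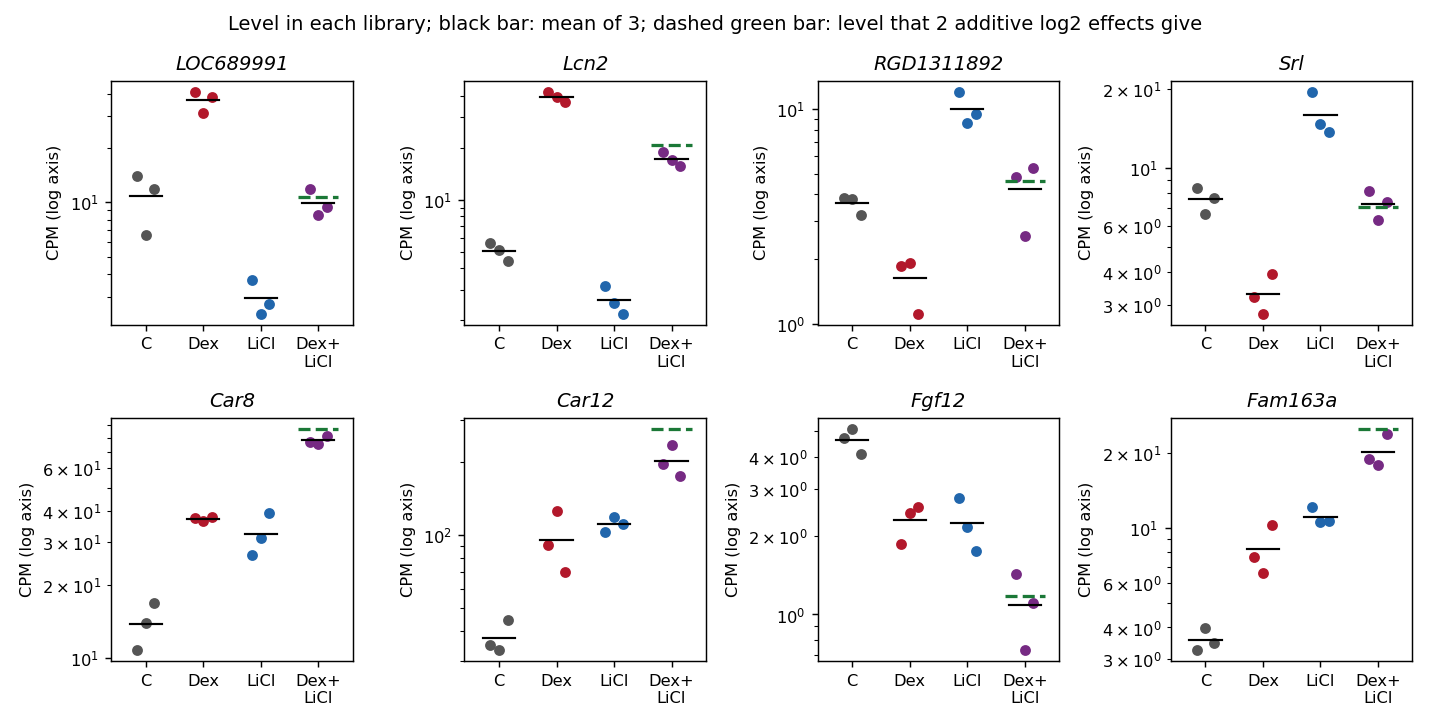
Level of 8 of the 9 genes called for both average effects with an interaction interval within 2-fold, in each library (CPM, log axis) by condition, with the mean as a black bar and the level that additive log2 effects would give as a dashed green bar. The genes were chosen by this interval, so a level near the dashed bar follows from the choice. The level with both drugs was 9.90 against 10.7 CPM for LOC689991 and 202.5 against 275 CPM for Car12.

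The study named 16 genes as opposite in direction between its comparisons, of which 15 were tested here. They were chosen on these same libraries, so neither their direction nor an excess over all genes is independent evidence. In all 15, dexamethasone against control and dexamethasone + LiCl against dexamethasone had opposite signs. These comparisons share the dexamethasone libraries, so the choice itself favored a departure. For the interaction, 9 of the 15 had an interval that left out 0, against 5.56% of all genes, and 0 had an edgeR adjusted p under 0.05, with 7 estimates over 2-fold (0.532% of all genes) and 2 intervals wholly within 2-fold. Cytl1, a secreted protein made by chondrocytes, was at 38.2, 54.2 and 36.0 CPM in control, 12.3, 14.1 and 9.98 CPM with LiCl, 171, 171.5 and 88.9 CPM with dexamethasone and 149.5, 139.5 and 66.9 CPM with both drugs. LiCl lay below control without overlap, whereas both drugs and dexamethasone alone overlapped. At each replicate number, though, Cytl1 was lower with both drugs than with dexamethasone alone. The interaction of Cytl1 was 1.52 (95% interval 0.66 to 2.39, edgeR adjusted p = 0.507). Cytl1 was called with the replicate block (adjusted p = 0.0249) and with no count filter (adjusted p = 1.13e-05). Adora2a, an adenosine receptor, had an interaction of 1.62 (0.38 to 2.86), Ackr4, a scavenging receptor of chemokines, of -1.05 (-1.79 to -0.32) and Perp, a component of desmosomes, of -1.12 (-2.11 to -0.12). Tppp3 encodes a protein that binds tubulin. It was at 1.30, 2.32 and 1.46 CPM in control, 0.621, 0.755 and 0.897 CPM with dexamethasone, 14.8, 12.9 and 16.8 CPM with LiCl and 14.4, 13.4 and 13.0 CPM with both drugs, so that both conditions with LiCl lay far above the others. Its interaction was 0.95 on the log2 scale (0.19 to 1.72), but on the linear scale the departure was -0.311 CPM, with the opposite sign. Srl and RGD1311892, which belonged to the additive genes above, were the 2 whose intervals lay within 2-fold.

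**Figure D4:**
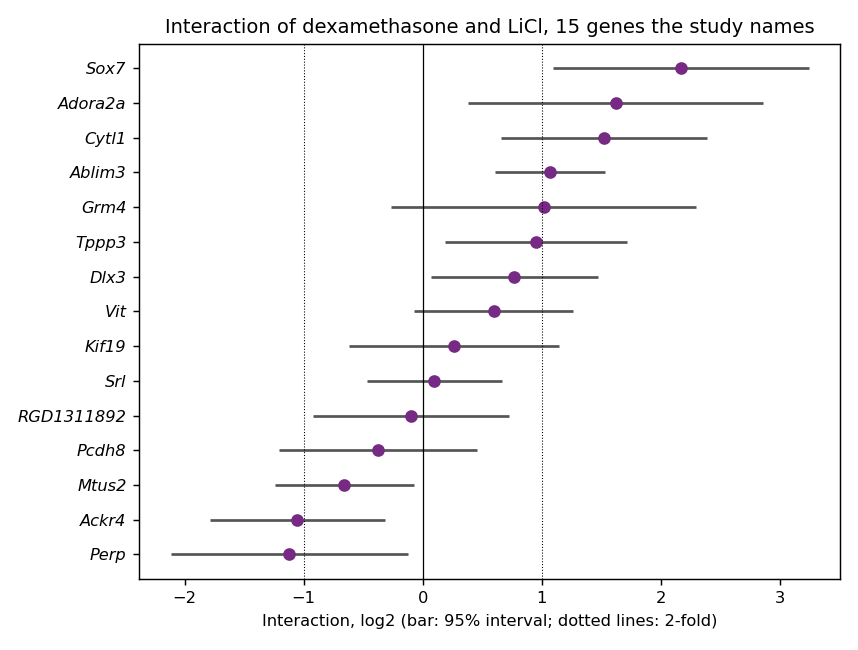
Interaction of dexamethasone and LiCl (log2, x axis) for the 15 tested genes that the study named as opposite in direction, with 95% intervals as bars and dotted lines at 2-fold. The intervals of 9 genes leave out 0 and those of Srl (0.10) and RGD1311892 (-0.10) lie within 2-fold.

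Gene lists of pathways and cell types were compared next. Over all genes the median interaction was -0.00, and 5.59% had an unadjusted p under 0.05. Hif3a, the gene that passed the interaction test, had been placed among the glucocorticoid receptor targets (1 of 23 tested, lower) and not in the hypoxia response list. Which list held a passing member was thus set when the lists were written and is no result about these targets. The average dexamethasone effect was higher for 19 and lower for 1 of these 23, against 7.59% and 8.18% of all genes. The median effect over the 23 was 1.34 without LiCl and 1.12 with LiCl. Of the 23 members, 14 had a negative and 9 a positive interaction. Of all 175 genes called higher for the average dexamethasone effect, 122 (69.7%) had a smaller effect with LiCl, which is a negative interaction. The median interaction of the list was -0.13, with 6 members of negative and 1 of positive interaction at an unadjusted p under 0.05. Besides Hif3a and Per1 the negative ones were Zbtb16 (a zinc finger transcription factor, -1.08), Sult1a1 (a sulfotransferase, -0.80), Pdk4 (a kinase that inhibits pyruvate dehydrogenase, -0.69) and Klf15 (a Krüppel-like factor, -0.35), with adjusted p from 0.567 to 0.838. Zbtb16 was at 1.67, 0.836 and 2.47 CPM in control, 53.3, 45.6 and 57.2 CPM with dexamethasone, 2.29, 1.94 and 3.54 CPM with LiCl and 31.0, 40.0 and 37.5 CPM with both drugs. Dexamethasone alone lay above both drugs together in every library. In contrast, Fkbp5 and Tsc22d3, the glucocorticoid-induced leucine zipper, held their response. Tsc22d3 rose by 1.56 without LiCl and by 1.59 with LiCl, with an interaction of 0.03 (95% interval -0.28 to 0.33).

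Of the Wnt/β-catenin target genes, 8 of 16 tested were higher and 4 lower with LiCl on average, and 0 passed for the interaction. Over all genes 9.4% were higher and 11.6% lower with LiCl. The median LiCl effect of the 16 was 0.57 without dexamethasone and 0.40 with it. Nkd2, an antagonist of Wnt signaling that is induced by it, was at 19.8, 17.9 and 19.6 CPM in control, 52.0, 55.1 and 56.0 CPM with LiCl, 13.2, 12.3 and 9.75 CPM with dexamethasone and 41.5, 42.3 and 40.9 CPM with both drugs. All conditions were apart, and LiCl raised Nkd2 by 1.5 without and by 1.81 with dexamethasone. The interaction of Nkd2 was 0.31 on the log2 scale (95% interval 0.01 to 0.61, edgeR adjusted p = 0.838) and -5.45 CPM on the linear scale, so its sign depended on the scale. Notum, which is secreted and removes the lipid of Wnt ligands, rose by 1.74 and by 1.64, with an interaction of -0.10 (95% interval -0.54 to 0.34). Lgr5, a receptor of R-spondins, responded to dexamethasone instead, by 1.98 without and 1.94 with LiCl.

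Among lists of cell types, the endothelial markers had 18 of 19 positive interactions, with a median of 0.36 and 6 at an unadjusted p under 0.05, all positive. On average dexamethasone lowered 16 of 19, against 8.18% of all genes. The median effect over the 19 was -1.02 without LiCl and -0.83 with LiCl. A positive interaction was not particular to this list. Of all 109 genes called lower for the average dexamethasone effect, 81 (74.3%) had a smaller effect with LiCl, which is a positive interaction. The summed level of the list was 404 to 459 CPM in control, 359 to 408 CPM with LiCl, 206 to 217 CPM with dexamethasone and 228 to 235 CPM with both drugs. Cdh5, the cadherin of endothelial junctions, averaged 55.4 CPM in control, 52.6 with LiCl, 23.0 with dexamethasone and 29.6 with both drugs, with an interaction of 0.44 (95% interval 0.17 to 0.72, adjusted p = 0.656). Cd93, a glycoprotein of endothelial cells, had an interaction of 0.03 (95% interval -0.37 to 0.42), and Kdr of 0.09 (-0.42 to 0.61). Sox7 belongs to this list, and the part of the endothelial RNA in its value was not tested.

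The adipocyte markers had positive interactions in 6 of 6 tested members, with a median of 0.54 and 2 at an unadjusted p under 0.05 (Fabp4 and Lpl). LiCl lowered 5 of the 6 on average, against 11.6% of all genes. Of all 74 genes called lower for the average LiCl effect, 46 (62.2%) had a smaller effect with dexamethasone, which is a positive interaction. The summed level of the adipocyte markers was 59.5 to 75.9 CPM in control and 57.8 to 69.8 CPM with dexamethasone. It was 32.4 to 33.7 CPM with LiCl and 48.2 to 60.4 CPM with both drugs. Fabp4 alone averaged 19.1 CPM in control, 31.9 with dexamethasone, 4.07 with LiCl and 26.1 with both drugs. Means of Lpl, Cfd, Cebpa and Lipe were below control in every treated condition. The rise of the sum from LiCl to both drugs thus followed Fabp4. Pparg, Plin1, Plin4, Cidec, Lep and Retn did not reach the count minimum. Adipoq, the hormone adiponectin, had 111, 74 and 48 raw counts in control, 1, 14 and 4 with dexamethasone, 1, 0 and 0 with LiCl and 0, 1 and 0 with both drugs. Its interaction of 3.27 (95% interval -3.41 to 9.96) was not determined at this depth, and with both drugs it stayed at 0 or 1 count, where Fabp4 was near its control level. The part of adipocyte RNA in the value of Fabp4 was not tested. LiCl raised 10 of 12 skeletal muscle markers on average, against 9.4% of all genes. Their median LiCl effect was 0.95 without and 1.27 with dexamethasone, and their median interaction was 0.40. Acta1, skeletal muscle actin, rose with LiCl by 3.17 and by 3.53 (interaction 0.36, 95% interval -0.63 to 1.35), and Myl1, a myosin light chain, by 2.37 and by 3.68 (interaction 1.31, 0.46 to 2.16, adjusted p = 0.734).

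Macrophage markers were mixed, with 7 positive and 5 negative interactions among 12. Cd163, a scavenger receptor of macrophages that glucocorticoids induce, had 1, 0 and 0 raw counts in control, 4, 2 and 1 with LiCl, 149, 213 and 111 with dexamethasone and 79, 127 and 133 with both drugs. Scaled for depth, Cd163 was at 15.4, 17.9 and 12.4 CPM with dexamethasone and 8.63, 11.6 and 7.77 CPM with both drugs, which did not overlap. Its interaction (-3.07, 95% interval -6.47 to 0.34) was not determined, as the gene had 4 counts at most in any library without dexamethasone. Among 5 osteoclast markers tested, Mmp9, a gelatinase, was at 47.9, 49.9 and 46.0 CPM in control, 29.5, 13.4 and 30.1 CPM with LiCl, 2.48, 1.68 and 3.59 CPM with dexamethasone and 3.93, 1.82 and 5.67 CPM with both drugs, which overlapped with dexamethasone alone. At each replicate number, though, Mmp9 was higher with both drugs than with dexamethasone alone. Its interaction was 1.65 (95% interval 0.52 to 2.78, edgeR adjusted p = 0.738).

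Lists of growth, cartilage and metabolism were read against the 90.1% of all genes whose interaction interval lay within 2-fold. That share was 54.3% at a mean of up to 100 counts and 98.7% in the highest class of mean counts. The lists were not compared with genes of similar counts. Whether their shares within 2-fold differ from those of such genes was thus not tested. On average LiCl was higher for 8 and lower for 1 of 30 cell cycle and DNA replication genes (all genes: 9.4% and 11.6%). All 30 had an interaction interval within 2-fold, with a median interaction of 0.01. The same held for all 22 genes of branched-chain amino acid catabolism, all 15 tested genes of the FGF pathway and all 14 of the Hedgehog pathway. Of 16 cartilage matrix genes, 14 lay within 2-fold, and the interaction of Col2a1, the main collagen of cartilage, was 0.09 (95% interval -0.58 to 0.77). Of 16 genes of hypertrophic chondrocytes 14 lay within 2-fold as well, and Col10a1 had the largest positive value of the list. Genes of glycolysis had 16 of 18 positive interactions with a median of 0.19, and 0 of them had an unadjusted p under 0.05, while 13 of 18 intervals lay within 2-fold. LiCl raised 13 of these 18 on average, against 9.4% of all genes. The median effect over the 18 was 0.43 without and 0.66 with dexamethasone. Of all 98 genes called higher for the average LiCl effect, 50 (51.0%) had a smaller effect with dexamethasone, which is a negative interaction. Ldha (lactate dehydrogenase A), 1 of the glycolysis genes, averaged 217 CPM in control, 313 with LiCl, 155 with dexamethasone and 298 with both drugs.

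**Figure D5:**
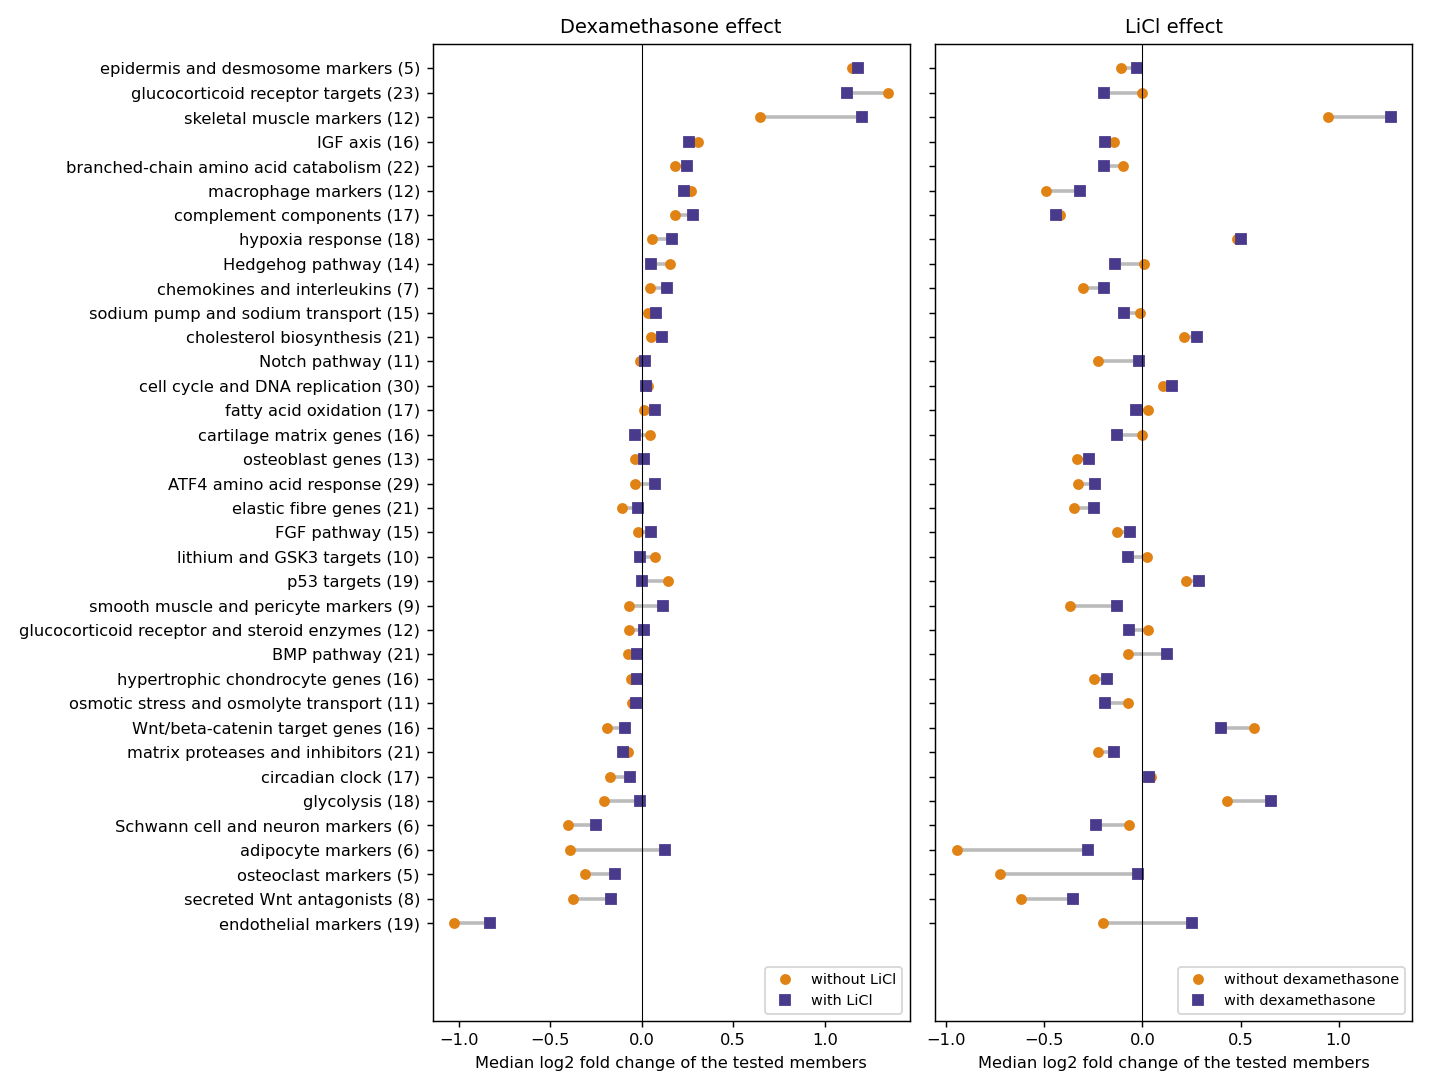
Median log2 fold change of the tested members of each gene list with at least 5 of them (number in brackets), without the genes the study named, for dexamethasone without and with LiCl (left) and for LiCl without and with dexamethasone (right); circles mark the effect without and squares the effect with the other drug. The widest gaps between circle and square are those of the osteoclast (5) and adipocyte (6) markers for LiCl and of the skeletal muscle (12) and adipocyte markers for dexamethasone.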

How the data were processed

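Whole-bone RNA was sequenced from the 12 pools. The authors deposited raw counts by gene symbol, 1 set for each pool. Per the methods and the submitters' processing notes, Subread was the aligner, Picard removed duplicates, HTSeq counted reads and technical replicates were merged. Abundant transcripts can lose counts when duplicates are removed. The notes name a human build (hg19, GRCh37) for these rat libraries, so the files' coordinates were not used here. Of 30045 symbols, 19073 matched the RefSeq table exactly, 10769 of them among those kept.

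Genes with 60 counts in at least 2 libraries were fitted in R 4.3.3 with edgeR 4.0.16 (TMM and the two-sided quasi-likelihood F-test with a mean per condition), with Benjamini-Hochberg adjustment over 12602 genes. A gene was called at an adjusted p under 0.05 and, where stated, over 2-fold. Intervals are 95% and come from the fit's standard error. Sums of squares used log2 CPM with a prior count of 2. Alternatives were RLE scaling, DESeq2 1.42.0, limma-voom 3.58.1, other count filters, a replicate block, thinned counts, another prior count (0.5), an additive model, additivity of mean CPM, and each library left out. Plots used matplotlib 3.10.9 in Python 3.11.15.

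The comparison and the gene lists were chosen with earlier results of these data known. By rule, the genes named were those called for the interaction, up to 3 members of each list that passed it, the genes the study described as opposite in direction, Fkbp5, Nkd2, Axin2, Col10a1 and Mmp9 as references, and up to 10 additive genes called for both drugs. All others were named after their values had been seen. No pair of libraries of a condition agreed within sampling noise, and the tests measure the spread between pools.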

Additional observations from a re-analysis of the deposited data

Results flagged for a closer look

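For Hif3a the effect of LiCl differed with and without dexamethasone by the interaction test itself (-1.41 on the log2 scale, edgeR adjusted p = 0.0334). LiCl raised it by 1.09 in the absence of dexamethasone, and its value in the presence of dexamethasone was -0.32.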

How the results depend on the processing

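The count of genes called for the interaction was 1 with RLE scaling, limma-voom and filterByExpr, as with the settings used. It was 14 with DESeq2's Wald test, 22 with no count filter and 2 with thinned counts, and 0 to 2 when single libraries were left out. Without a fold minimum these counts were 25, 37, 2 and 0 to 2. Hif3a was among the calls in each of these settings except for the 8 libraries whose loss ended its call. Over the settings, 510 to 1372 genes had an unadjusted p under 0.05. Genes called for the average dexamethasone effect were 521 with filterByExpr and 655 with no count filter, and those for LiCl 357 and 457. With no count filter, 150 genes were called for LiCl in both comparisons and 304 for dexamethasone, with 1 further gene of opposite direction for dexamethasone. The share of the sum of squares in the interaction ranged from -0.916% to 3.72% when single libraries were left out. The share of intervals within 2-fold was 75.6% with filterByExpr and 60.9% with no count filter, where more genes of few counts entered. Under a replicate block the interaction was called for 3 genes, Hif3a, Fabp4 and Cytl1, with and without the fold minimum. The adjusted p was 0.00475 for Hif3a and Fabp4 and 0.0249 for Cytl1. Of 18 correlations between libraries of the same number 16 were over 0.1 (0.0273 to 0.50), and each of the 12 libraries correlated best with its own number, as a hint from the data. The share of LiCl genes with a smaller effect under dexamethasone ranged from 44.3% to 61.6% when single libraries were left out, and turned to 44.3% without dexamethasone replicate 2 and to 45.6% without dexamethasone + LiCl replicate 3. On the linear scale the sign of the interaction turned for LOC100909954 (9.57 CPM), Tppp3 (-0.311 CPM) and Nkd2 (-5.45 CPM). The causes were not tested.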
